A study of Homo sapiens with 9 samples.

Results

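CDKN1A encodes p21, a cyclin-dependent kinase inhibitor that stops the cell cycle after DNA damage and in senescence. The gene is 1 of the 20176 protein-coding genes annotated on the chromosomes analysed here. It lies on the plus strand of chromosome 6 (hg19 chr6:36644237-36655114, ENSG00000124762), and its whole length falls in a single 40 kb bin, chr6:36640001-36680000, which also holds the start of RAB44, a member of the Rab GTPase family. The locus was followed over 53 bins of 40 kb out of 75918 in the matrices, from 35.6 to about 37.7 Mb, with 34 protein-coding genes. These bins were chosen by position and not by any measured value.

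Hi-C ligates DNA ends that lie close together in the nucleus, so that the number of contacts between 2 bins reports how often they met. Contacts fall steeply with distance along the chromosome, are denser within domains than across the borders between them, and are more frequent between regions of the same compartment, A (gene-rich, active) or B. In senescent fibroblasts p21 keeps CDK2 from phosphorylating the RB family, so that E2F target genes stay repressed.

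All libraries came from IMR90, a human diploid lung fibroblast line, infected with a construct for an oestrogen receptor fusion of HRAS carrying G12V. The growing cells carried the construct without induction, and growing replicate 3 also carried an empty MSCV vector. RAS-induced senescence (RIS) was set off with 100 nM 4-hydroxytamoxifen (4OHT) over 6 days, so that oncogene, 4OHT and time in culture changed together. There were 3 growing and 2 RIS Hi-C libraries, and 2 of each in capture Hi-C. The study's methods call the libraries of a group biological replicates. The Hi-C libraries held 109967509 to 180775315 contacts recovered from the deposited values, fewest in RIS replicate 1, and 92.4 to 93.0% of them joined bins of the same chromosome in growing against 90.2 to 90.4% in RIS. Growing replicate 3 and RIS replicate 2 had many duplicate reads by the study's alignment summary, and differences are therefore also given separately for those with many duplicates and for the other 3. Each of these classes held a single RIS library, so that these differences carry no spread within RIS. Among the growing libraries, duplicate class and the empty vector cannot be told apart.

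The capture libraries gave no measurement of the locus. In each of the 4, none of the 1629377 to 2369616 deposited values involved any of the 210 bins of 10 kb in the window. The locus is therefore described from the 40 kb Hi-C alone.

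The study designed its capture baits to HindIII fragments. The enzyme of the Hi-C libraries is not named outright in the sources used here, and HindIII was taken for it. The sites that flank and split the gene are shown because, if so, they bound the fragments that carry CDKN1A. Each is given on the plus strand of hg19 with 12 bases on either side, and capitals mark the recognition sequence, which reads the same on both strands.

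Site before the gene, chr6:36639860-36639889: tgtaccacccagAAGCTTctgcaagagcca
First site in the gene, intronic, chr6:36651278-36651307: agtggctttttaAAGCTTacgtagtaactg
Second site in the gene, intronic, chr6:36652530-36652559: aggccctttgccAAGCTTctaaggtagatt
Site after the gene, chr6:36659089-36659118: agctgagggtacAAGCTTctcaagtgcgtc

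The start of CDKN1A sits on a HindIII fragment of 11418 bp, and the site that opens it lies in the neighbouring bin. The CDKN1A bin held 6 HindIII sites against a median of 12 over the 69621 bins compared, and 5.04% of bins held fewer. AAGCTT was present in 100.0% of these bins. The bins on either side of CDKN1A held 5 sites each, whereas the bins of SRSF3 and CPNE5 at the domain's borders held 11 and 9. The CDKN1A bin received few contacts before balancing, 0.390, 0.345 and 0.354 times the median bin in growing and 0.401 and 0.355 times in RIS. These levels overlapped between the groups, and the difference of 0.06 ± 0.07 (log2, SE) did not pass the test (limma, adjusted p = 0.742). None of the 69621 bins passed it for this measure (background 0.0%).

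Within the window the CDKN1A bin had 1168, 1167 and 1262 recovered contacts in growing and 899 and 1085 in RIS, including 220 to 335 within the bin itself. Most of the others lay within 200 kb, between 511 and 648 per library. Single partner bins beyond that distance held few contacts, and 3 to 8 of the partner bins held none in a given library. Of the 51 partner bins with usable values, 36 passed the minimum of a mean scaled value of 5 and were tested.

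By the mean over all 5 libraries the CDKN1A bin met 3 nearby bins most, relative to the mean contact at the same distance on chromosome 6 (observed/expected). These were the next bin towards higher coordinates, which holds the rest of RAB44, a bin within CPNE5 and the bin of SRSF3. CPNE5 encodes a copine, a calcium-dependent membrane-binding protein, and SRSF3 a splicing factor of the SR family. Partner bins were named by genes that overlap them, which need not start there. CPNE5 overlaps the RAB44 bin and the bins from there to 160 kb, and the CPNE5 bin is the one 80 kb away. With the RAB44 bin the log2 observed/expected contact was 0.95, 1.00 and 1.12 for growing and 1.24 and 1.05 for RIS. These ranges overlapped. With the CPNE5 bin, 80 kb towards higher coordinates, the growing libraries had 0.88, 1.14 and 0.51 and the RIS libraries 1.27 and 1.30, from 86, 98 and 73 against 91 and 115 contacts. With the SRSF3 bin, 80 kb towards lower coordinates, it was 0.84, 0.83 and 0.71 in growing and 1.19 in both RIS libraries, from 113, 108 and 109 against 105 and 126 contacts. For both border bins each RIS library lay above each growing library. These were 2 of the 36 tested pairs, against 14.7% of all pairs with RIS higher and no overlap, and 6 of the 36 had RIS lower and no overlap, against 15.5%.

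None of the 36 pairs passed the test in the limma fit on balanced values over all pairs up to 2 Mb apart (2 of 2087248 pairs called, background 9.58e-05%). At an unadjusted p under 0.05 there were 6 of the 36 pairs against 11.3% of all pairs. This fit took scaled balanced values and not the observed/expected values listed above. Its differences were 0.38 ± 0.16 (log2, SE; adjusted p = 0.437) for CPNE5 and 0.33 ± 0.08 (adjusted p = 0.317) for SRSF3. In the voom fit on recovered contacts, which are not balanced for how many contacts a bin received, the CDKN1A to CPNE5 pair passed (0.70 ± 0.15, adjusted p = 0.00665), 1 of 36 against a background of 1.06%. The SRSF3 pair did not pass there (0.49 ± 0.14, adjusted p = 0.0665). The coverage of the CPNE5 bin was itself 0.20 ± 0.06 (log2) higher in RIS, a difference that did not pass its own test (adjusted p = 0.267) and whose part in the pair's result was not tested. Leaving out growing replicate 1, RIS replicate 1 or RIS replicate 2 brought the count of voom calls among the CDKN1A pairs to 0. Here and in what follows, a fit without 1 RIS library held a single RIS library, which was assumed to vary like the growing libraries, so that its p-values carry no spread within RIS.

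**Figure D1:**
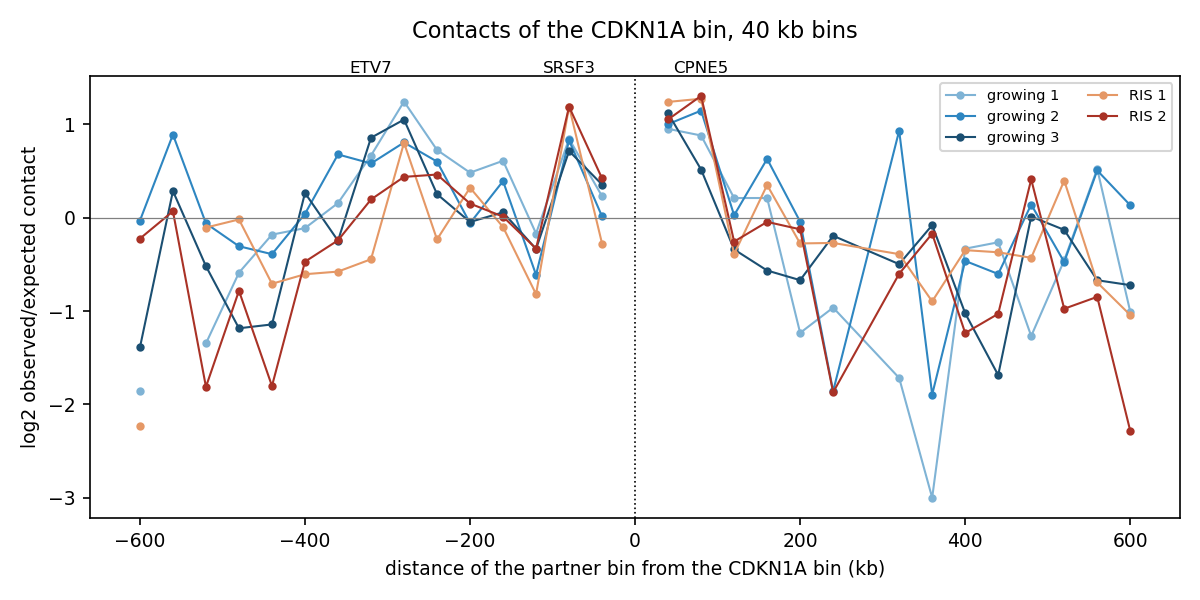
Contacts of the CDKN1A bin with each 40 kb bin up to 600 kb away, as log2 of observed over expected contact (vertical axis) against distance in kb (horizontal axis), with a line per library (blue growing, orange and red RIS). Partner bins without contacts in a library, and the unusable bin at 280 kb, have no point. At SRSF3 and CPNE5 the RIS libraries sit at 1.19 to 1.30, above all growing libraries, and at ETV7 they sit at -0.45 and 0.19, below all of them.

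Towards lower coordinates lay a second stretch of frequent partners. At a distance of at least 3 bins (120 kb) the 5 bins with the highest mean observed/expected contact all lay between 160 and 320 kb towards lower coordinates, over STK38 (the NDR1 kinase), KCTD20, PXT1 and ETV7 (an ETS-family repressor of transcription). The highest was a bin within PXT1, 280 kb away, at 1.24, 0.80 and 1.05 in growing and 0.80 and 0.44 in RIS. The next, which holds the start of ETV7, gave 0.66, 0.58 and 0.85 in growing and -0.45 and 0.19 in RIS, from 35, 33 and 43 against 11 and 21 contacts. The groups were apart at ETV7 and nearly touched at PXT1. The difference at ETV7 was -0.84 ± 0.22 in limma (adjusted p = 0.326) and -0.70 ± 0.30 in voom (adjusted p = 0.280), so that neither passed. For the STK38, KCTD20 to STK38 and PXT1 to KCTD20 bins the limma differences were -0.41, 0.09 and -0.43, with adjusted p of 0.440, 0.884 and 0.516.

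Besides ETV7, the largest fitted falls were at MAPK13, a p38 kinase, and TBC1D22B, and the largest rises at RNF8 (a ubiquitin ligase of the DNA damage response), at FKBP5 (a co-chaperone of the glucocorticoid receptor) and at a bin without a protein-coding gene 360 kb away. These rested on few contacts. The RNF8 bin was the one 720 kb away, and RNF8 also overlaps the bin at 680 kb. It had 2, 4 and 0 contacts in growing and 2 in each RIS library. The MAPK13 bin, 560 kb away, had 0, 4 and 3 in growing and 0 and 2 in RIS. None of them passed in either fit, and what size of difference could be detected at this depth was not tested.

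Summed by distance, the contacts of CDKN1A were more frequent in RIS at 40 to 200 kb, as in many bins of the window, and less frequent at 240 to 520 kb. The balanced values sum to the same total in each bin, so that the ranges of distance are not independent of each other. With partners 40 to 200 kb away the log2 observed/expected contact was 0.54, 0.54 and 0.47 for growing (0.52 ± 0.04, SD, n = 3) and 0.60 and 0.66 for RIS (0.63 ± 0.05, SD, n = 2). Every RIS library lay above every growing library, and the bin rose by 0.12 ± 0.04 (SE; a fold of 1.08; limma, adjusted p = 0.0449). The difference was 0.06 within the libraries with few duplicates and 0.19 within those with many. Such calls were common, since 37.1% of all bins passed this test, 14.7% with higher and 22.4% with lower values in RIS, and 28.6% had groups that did not overlap with RIS higher. In the window 19 of 52 bins rose and none fell, with a median of 0.09, so that the rise was not particular to the bin of CDKN1A. The call was lost when any of the 5 libraries was left out, with adjusted p between 0.0595 and 0.239 (a single RIS library remained in 2 of these fits), with the duplicate class as a block (0.12, adjusted p = 0.0537) and against the genome-wide expected contact (0.08, adjusted p = 0.134).

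With partners 240 to 520 kb away the growing libraries had -0.06, 0.11 and -0.01 (0.02 ± 0.09, SD, n = 3) and the RIS libraries -0.20 and -0.34 (-0.27 ± 0.10, SD, n = 2). Here every RIS library lay below every growing library, and the bin fell by 0.29 on the log2 scale (SE 0.08; a fold of 0.819; limma, adjusted p = 0.0387). Of all bins, 17.2% passed, 11.0% with lower and 6.18% with higher values in RIS, and 27.6% had groups that did not overlap with RIS lower. In the window 3 of 52 bins fell and 1 rose. The difference was -0.23 within few and -0.34 within many duplicates. This call was lost as well when any of the libraries was left out (adjusted p 0.0602 to 0.154) and on contacts that were not balanced (-0.18, adjusted p = 0.178).

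The groups were also apart at the longer distances, where neither difference passed. At 560 to 1000 kb the values were -1.01, -0.64 and -0.99 in growing and -1.17 and -1.35 in RIS, a difference of -0.38 ± 0.13 (limma, adjusted p = 0.110), where 7.5% of all bins passed. At 1040 to 2000 kb they were -1.60, -1.41 and -1.34 in growing and -1.88 and -2.35 in RIS, a difference of -0.67 ± 0.16 (adjusted p = 0.0573), where 6.33% passed. This difference was -0.38 within few and -1.02 within many duplicates, and it ran from -0.43 without RIS replicate 2 to -0.91 without RIS replicate 1. In the window 38 of 52 bins were below 0 in this range and 5 fell. Groups that did not overlap, with RIS lower, were found in 25.8% of all bins at either of these distances. The exact permutation test of single values could not go below p = 0.2 for 3 against 2 libraries, two-sided, and gave that value at all 4 distances.

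**Figure D2:**
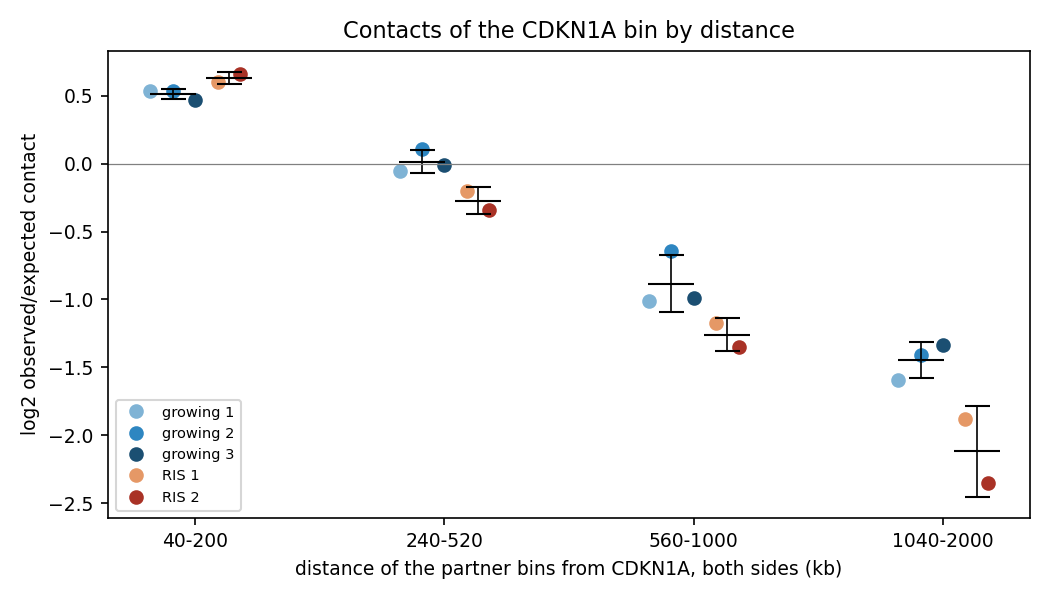
Contacts of the CDKN1A bin with partners on both sides at 4 ranges of distance (horizontal axis, kb) as log2 of observed over expected contact (vertical axis). Points are libraries, long ticks are group means and bars are SD (n = 3 growing, n = 2 RIS). The RIS libraries lie above the growing libraries at 40-200 kb and below them in the other ranges.

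By side, the groups overlapped. Up to 1 Mb towards lower coordinates the log2 observed/expected contact was 0.27, 0.15 and 0.17 for growing and -0.03 and 0.22 for RIS, a difference of -0.10 ± 0.07 (limma, adjusted p = 0.304), where 33.2% of all bins passed. It was 0.02 without RIS replicate 1 and -0.23 (adjusted p = 0.0332) without RIS replicate 2, each with a single RIS library left. Towards higher coordinates the growing libraries had 0.25, 0.47 and 0.27 and the RIS libraries 0.55 and 0.41, a difference of 0.15 ± 0.07 (adjusted p = 0.146), where 33.3% passed. This difference passed on contacts that were not balanced (0.32 ± 0.09, adjusted p = 0.0226) and without growing replicate 2 (0.22, adjusted p = 0.0307), and it was 0.08 (adjusted p = 0.559) without RIS replicate 1.

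Borders between domains appear as minima of the insulation score. The score is the log2 mean contact between the 13 bins (520 kb) on either side of a bin, relative to the chromosome. A lower score means fewer contacts across the bin, and every difference in insulation given here is one of this score. CDKN1A lay between 2 borders that were found in all 5 libraries, at the bin of SRSF3 on one side and in CPNE5 on the other. The domain between them spanned 3 bins, chr6:36600001-36720000, with CDKN1A and RAB44. The score of the CDKN1A bin itself was -0.14, -0.13 and -0.20 for growing and -0.13 and -0.31 for RIS. The RIS libraries enclosed most of the growing range, and the difference of -0.06 ± 0.05 did not pass (limma, adjusted p = 0.339). It was -0.15 without RIS replicate 1 (adjusted p = 0.0364) and 0.03 without RIS replicate 2 (adjusted p = 0.644), each with a single RIS library left.

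At the SRSF3 border the score fell in RIS. The growing libraries had -0.20, -0.25 and -0.33 (-0.26 ± 0.06, SD, n = 3) and the RIS libraries -0.46 and -0.53 (-0.49 ± 0.05, SD, n = 2), and every RIS library lay below the growing ones. The difference was -0.23 ± 0.04 (limma, adjusted p = 0.00320) and lay between -0.27 and -0.20 with 1 library left out. All 5 of these fits passed the threshold, but 2 of them rested on a single RIS library. It was -0.23 within the libraries with few duplicates and -0.20 within those with many. On contacts that were not balanced it was -0.08 ± 0.07 and did not pass (adjusted p = 0.353). The 2 bins before it, towards STK38, fell too, by 0.23 (adjusted p = 0.00181) and 0.12 (adjusted p = 0.0344) on the log2 scale. The insulation score was called at 53.1% of all bins, lower in RIS at 28.2% and higher at 24.9%. In the window 11 of 52 bins were called, 5 of them lower. Groups that did not overlap were found with RIS lower at 35.7% of all bins and with RIS higher at 36.0%. The prominence of the SRSF3 minimum, its depth below the lower of the flanking maxima, was 0.12 to 0.18 in the growing libraries and 0.29 and 0.33 in RIS.

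At the CPNE5 border the score was -0.54, -0.38 and -0.52 for growing and -0.48 and -0.72 for RIS. The groups overlapped, and the difference of -0.11 ± 0.07 did not pass (adjusted p = 0.211). Without RIS replicate 1 it was -0.23 (adjusted p = 0.0334) and without RIS replicate 2 it was 0.00520 (adjusted p = 0.955), again with a single RIS library left. Its prominence was 0.78, 0.34 and 0.40 for growing and 0.78 and 0.96 for RIS.

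At the next border towards lower coordinates the score rose in 1 of its 2 bins. At the ETV7 bin, 320 kb from CDKN1A, the score was -0.52, -0.46 and -0.63 in growing (-0.54 ± 0.08, SD, n = 3) and -0.37 in both RIS libraries (-0.37 ± 0.000698, SD, n = 2). It rose by 0.17 ± 0.05 (limma, adjusted p = 0.0183), by 0.12 within few and 0.26 within many duplicates. The call was lost without RIS replicate 1 and without RIS replicate 2, each with a single RIS library left, at nearly the same size, 0.17. With these fits, the call was lost in 3 of the alternatives run, where the difference was still a rise. At the PXT1 bin next to it, which is the border in the mean over all libraries and bounds the domains used here, the growing libraries had -0.49, -0.45 and -0.57 and the RIS libraries -0.39 and -0.44. The difference of 0.09 ± 0.04 did not pass (adjusted p = 0.108), nor did it when any library was left out, and it passed with the duplicate class as a block (0.10, adjusted p = 0.0233), with a window of 7 bins (0.17, adjusted p = 0.0412) and on contacts that were not balanced (0.25, adjusted p = 0.00636). The 4 bins before ETV7, over BRPF3, PNPLA1 and BNIP5, rose by 0.08 to 0.21 (adjusted p 0.00120 to 0.0492). The minimum lay in the ETV7 bin in all 3 growing libraries, with a prominence of 0.50, 0.75 and 0.85, and in the PXT1 bin in both RIS libraries, with 0.23 and 0.27. A further shallow minimum, 160 kb from CDKN1A over CPNE5, PPIL1 and C6orf89, passed the prominence limit of 0.1 in both RIS libraries (0.10 and 0.12) and in none of the growing ones. Such minima were more numerous in RIS over the whole genome, 5104 and 5221 per library against 4744 to 4793 in growing. The deepest border of the window, in TBC1D22B, moved by 1 bin, from 600 kb in each growing library to 640 kb in each RIS library, with a prominence of 1.23 to 1.28 and 1.26 to 1.33.

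**Figure D3:**
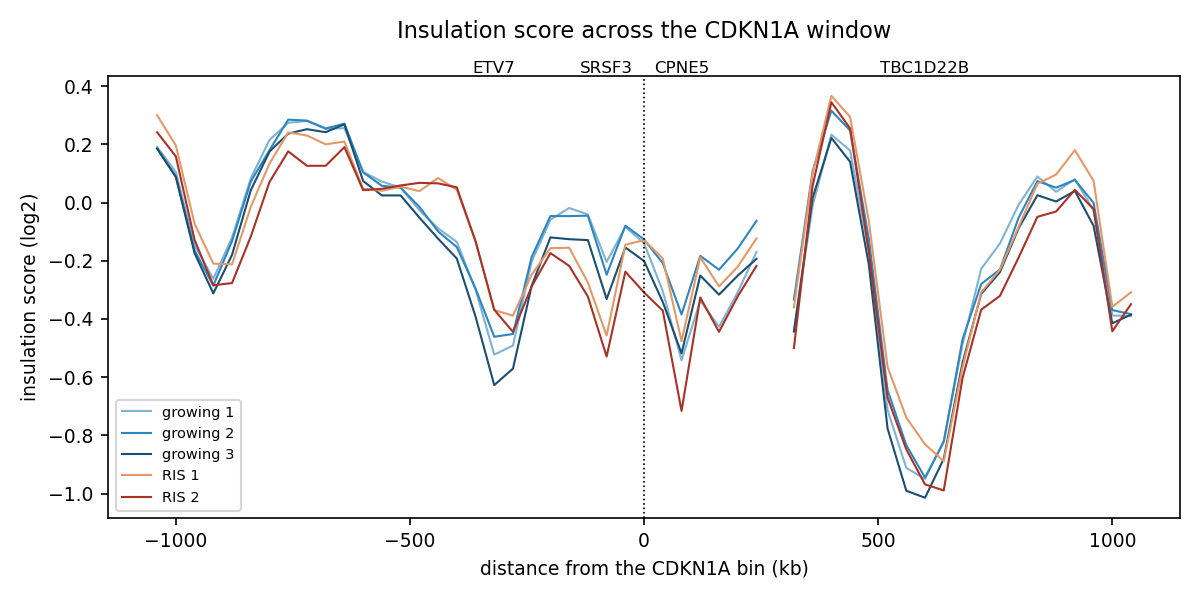
Insulation score (vertical axis, log2) across the window by distance from the CDKN1A bin (horizontal axis, kb), with a line per library (blue growing, orange and red RIS). The gap is the unusable bin. The RIS libraries run below the growing ones at SRSF3 (-0.46 and -0.53 against -0.20 to -0.33) and above them from BRPF3 to ETV7.

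Contacts inside the CDKN1A domain did not differ beyond their spread. The log2 observed/expected contact among its bins was 0.63, 0.55 and 0.74 for growing and 0.71 and 0.67 for RIS, a difference of 0.05 ± 0.05 (limma, adjusted p = 0.420), where 50.5% of 4812 domains passed. It was 0.10 (adjusted p = 0.0496) without growing replicate 3 and 0.00880 (adjusted p = 0.875) without growing replicate 2, and 0.12 within few and -0.07 within many duplicates. With the neighbouring domain of KCTD20 and STK38, chr6:36400001-36560000, the CDKN1A domain had values of 0.25, 0.06 and -0.15 in growing and -0.14 in both RIS libraries, a difference of -0.19 ± 0.11 (adjusted p = 0.183). Growing replicate 3 lay with the RIS libraries there, and without it the difference was -0.30 (adjusted p = 0.0186). Without growing replicate 1 it was -0.10 (adjusted p = 0.381), and it was -0.30 within few and 0.01 within many duplicates. With the domain on the other side, over CPNE5 and C6orf89, the difference was -0.09 ± 0.08 (adjusted p = 0.437).

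The 2 domains on the lower side of CDKN1A came into more frequent contact with each other in RIS. The same contacts enter in part the insulation score of the ETV7 and PXT1 bins, so that these results are not independent. Between the domain of KCTD20 and STK38 and the larger one from CLPSL1 to ETV7, which holds the p38 kinases MAPK14 and MAPK13, the log2 observed/expected contact was -0.42, -0.37 and -0.57 for growing (-0.45 ± 0.10, SD, n = 3) and -0.13 and -0.14 for RIS (-0.13 ± 0.01, SD, n = 2). It rose by 0.32 ± 0.06 (limma, adjusted p = 0.00925), by 0.27 within few and 0.43 within many duplicates, where 37.7% of 4763 neighbouring pairs passed and 11.2% passed with higher values in RIS. Without RIS replicate 1 it was 0.31 (adjusted p = 0.0579). Contacts within each of these domains rose by 0.13 ± 0.02 (adjusted p = 0.00462) and 0.09 ± 0.02 (adjusted p = 0.0159), in a fit where 34.0% of domains were called higher in RIS.

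For the CDKN1A bin itself no such rise was measured. With the 15 bins of the CLPSL1 to ETV7 domain it had a log2 observed/expected contact of -0.33, -0.02 and -0.36 in growing and -0.76 and -0.64 in RIS, from 115, 132 and 118 against 61 and 75 contacts. Both RIS libraries lay below the growing ones, a difference of -0.46 (two-sided exact permutation p = 0.2, the smallest this test could return). Contacts of a single bin with a domain were computed for CDKN1A alone. No share over all bins can therefore be set beside these values. With the KCTD20 and STK38 domain the CDKN1A bin had 0.38, 0.07 and -0.05 in growing and -0.22 and 0.03 in RIS, where the groups overlapped (exact permutation p = 0.4).

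Over the whole window, 21 of the 812 tested pairs passed in voom, all with more contacts in RIS (2.59% against 0.717% of all pairs called higher), and none passed in limma (113 at an unadjusted p under 0.05). The median difference of the 812 pairs was 0.13 in voom and 0.02 in limma on the log2 scale. The contacts used in voom were not balanced. Coverage of the window bins had a median difference of 0.05 (log2), against -0.00169 over all bins, and its part in these calls was not tested. Apart from the CDKN1A to CPNE5 pair, 3 calls around the gene joined the borders to each other or to the domain. The SRSF3 bin met the CPNE5 bin (0.56 ± 0.14, adjusted p = 0.0311) and the bin between it and CDKN1A (0.70 ± 0.17, adjusted p = 0.0222). The other call joined the CPNE5 bin to the RAB44 bin, which CPNE5 also overlaps (0.50 ± 0.14, adjusted p = 0.0444). On balanced values in limma these 3 differences were 0.30, 0.50 and 0.12. Another 2 ran outward from CPNE5, where the border bin and the bin after it both met the bin 160 kb from CDKN1A more often (0.58 ± 0.10, adjusted p = 0.000239, and 0.34 ± 0.08, adjusted p = 0.0128). In limma these differences were 0.23 and 0.10. A further set lay between MAPK14 and STK38, among them BRPF3 with ETV7 (0.55 ± 0.13, adjusted p = 0.0138), where limma gave 0.55. Without RIS replicate 1 or without RIS replicate 2 no pair of the window passed in voom, and without growing replicate 1 or 2 there were 4 and 7.

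**Figure D4:**
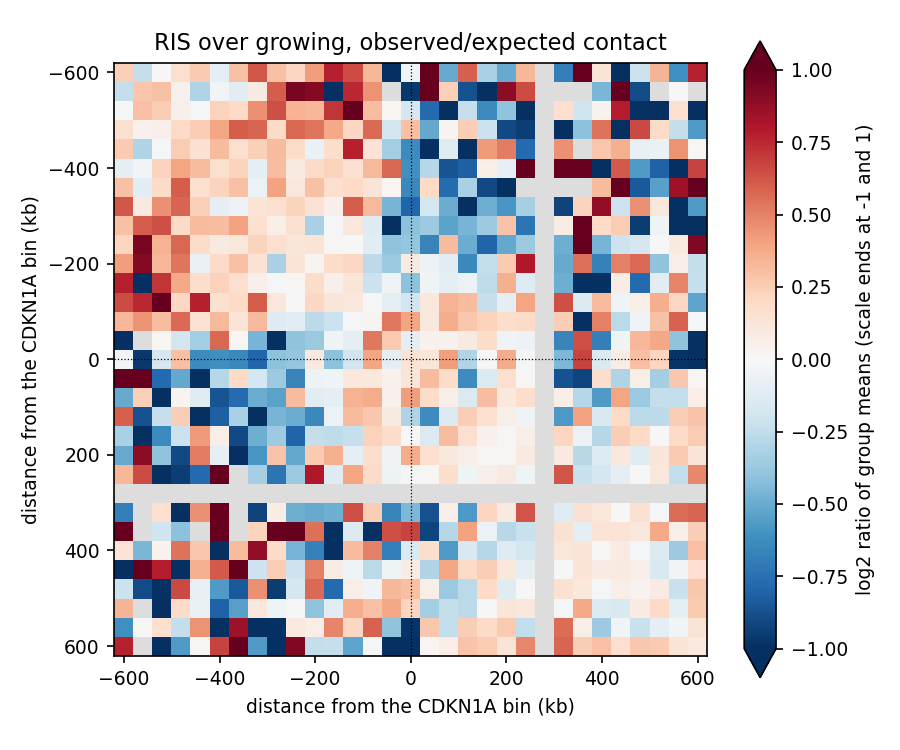
Ratio of RIS to growing contact between 40 kb bins up to 600 kb from CDKN1A, as log2 of the ratio of group means of observed over expected contact (colour, red higher in RIS; the scale ends at -1 and 1). Both axes give distance from the CDKN1A bin in kb, dotted lines mark its row and column, and grey marks the unusable bin and pairs without contacts in a group. The CDKN1A row is red at SRSF3 and CPNE5 and blue from 240 to 440 kb towards lower coordinates, while the block to the upper left, from BRPF3 to STK38, is mostly red.

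CDKN1A lay in the A compartment in all 5 libraries. The compartment score of its 120 kb bin was 0.67, 0.76 and 0.76 for growing and 0.65 and 0.55 for RIS. The score was divided by its SD over the chromosome in each library, so that it is relative to that spread. Both RIS libraries were lower, and the difference of -0.13 ± 0.06 did not pass (limma, adjusted p = 0.130). In the window 5 of 19 bins fell and none rose (39.2% of all bins passed and 17.5% fell, and 33.3% had RIS below growing without overlap), the neighbouring bin of STK38 and SRSF3 from 1.10 ± 0.06 to 0.81 ± 0.00494 (SD, n = 3 and n = 2; adjusted p = 0.00875), and the one of PIM1 from 1.14 ± 0.02 to 0.87 ± 0.00218 (adjusted p = 0.00708). All of them kept the sign of A. Beyond 2 Mb, the observed/expected contact of the CDKN1A bin with A bins was set over that with B bins of chromosome 6. The log2 of this ratio was 2.76, 2.23 and 1.36 for growing and 3.69 and 2.78 for RIS. The groups were narrowly apart, and the difference of 1.12 ± 0.42 did not pass (adjusted p = 0.0617). It passed with the duplicate class as a block (1.296, adjusted p = 0.00259), without growing replicate 1 (1.44, adjusted p = 0.0219) and, with a single RIS library left, without RIS replicate 2 (1.58, adjusted p = 0.0422). Without RIS replicate 1 it was 0.66 (adjusted p = 0.322). This ratio rose at 35 of 52 window bins, where 46.5% of all bins passed, 19.6% rose and 31.9% had RIS above growing without overlap. It fell at none of them, whereas the compartment score fell at 5 of 19 bins and rose at none.

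Contacts of the CDKN1A bin with other chromosomes made up 12.4, 10.9 and 11.8% of its contacts with all other bins in growing and 13.7 and 14.7% in RIS. Contacts within the bin itself are not in this total. The share rose by 0.28 ± 0.08 (log2, SE; limma, adjusted p = 0.00645). The median over all bins was a rise of 0.35, and 74.5% of bins passed, so that the rise at CDKN1A was smaller than that of the median bin. Without RIS replicate 2 it was 0.23 (adjusted p = 0.0701).

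Genes that act with p21 were placed by the bin of their start. Of the 7 CDK inhibitors, the CDKN1A bin was the only one called at 40 to 200 kb, where 37.1% of all bins were called. For CDKN1B and CDKN1C, which encode p27 and p57, this difference was -0.02 and 0.03 (adjusted p = 0.783 and 0.601), and for CDKN2A and CDKN2B, the inhibitors of CDK4 and CDK6, it was 0.07 and -0.03 (adjusted p = 0.175 and 0.480). At 240 to 520 kb CDKN1A and CDKN2D fell and the other 5 did not pass (17.2% of all bins called). The insulation score fell at CDKN2D alone of the 7, from -0.39 ± 0.07 to -0.71 ± 0.03 (SD, n = 3 and n = 2; 53.1% of all bins called). The difference between CDKN1A and the other inhibitors was not tested.

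Of 23 genes of the DNA damage response, the insulation score rose at 6 (among them MDM2, GADD45A, SESN1, FAS and PHLDA3). It fell at 6 (BAX, RRM2B, XPC, DDB2, PLK2 and PLK3) and did not pass at 11. The median difference was -0.03 against 0.00195 over all bins. These counts were near the background, since 24.9% of all bins rose and 28.2% fell. The largest difference among the 23 was at RRM2B, a ribonucleotide reductase subunit, from -1.19 ± 0.06 to -1.73 ± 0.11 (SD, n = 3 and n = 2). Contacts at 40 to 200 kb rose at 4 of the 23 (MDM2, RRM2B, TNFRSF10B and XPC; 14.7% of all bins) and fell at none (22.4%), with MDM2, a ubiquitin ligase, going from -0.08 ± 0.02 to 0.14 ± 0.04. Contacts at 240 to 520 kb rose at SESN1 (6.18% of all bins rose) and did not pass at the other 22.

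Among 12 cyclins, CDKs and PCNA, the insulation score rose at CCND2 and CCNE2 and fell at CCNB1 and CDK2. Contacts at 40 to 200 kb rose at CCND1 and CCNE2 and fell at CCNA2, and contacts at 240 to 520 kb rose at CDK6. Among 10 genes of the RB family and E2F, the insulation score rose at RB1, RBL1, E2F7 and E2F8 and fell at E2F1 and E2F5. Contacts at 40 to 200 kb rose at RB1, RBL1, RBL2 and E2F8 and fell at none, with a median of 0.09 against -0.00249 over all bins. At 240 to 520 kb RBL2 and E2F8 rose and RBL1 fell. Of all bins, the insulation score rose at 24.9% and fell at 28.2%. Contacts at 40 to 200 kb rose at 14.7% of all bins and fell at 22.4%, and contacts at 240 to 520 kb rose at 6.18% and fell at 11.0%. Nothing is read from gene counts this small.

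Of 50 such genes outside the window, the one whose bin was most like that of CDKN1A was CDKN2B, followed by CCNE2 and CDKN2A. The bin of CCNB1 was not among those compared. Likeness was measured as the Euclidean distance over 35 numbers (insulation, 2 sides and 4 ranges of distance in 5 libraries, each standardised over 67409 bins). It was 3.14 for CDKN2B, 3.73 for CCNE2 and 4.08 for CDKN2A, against a median of 8.48 over all bins, and 0.455% of bins were nearer than CDKN2B. These 3 were picked as the nearest of the 50, so that low distances follow from the choice. CDKN2A and CDKN2B lie in adjacent 40 kb bins and are not independent. At 40 to 200 kb the group means of CDKN2B were 0.55 for growing and 0.52 for RIS, a difference opposite in sign to that at CDKN1A, and its insulation score was positive, with group means of 0.17 and 0.12, where that of CDKN1A was negative.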

How the data were processed

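Hi-C and capture Hi-C contact matrices of growing and RIS IMR90 cells were analysed. The authors aligned reads to hg19 with HiC-Pro after FastQC (versions given in the study's reporting summary, not in the labels) and removed artefacts and duplicate reads. The deposited values are a balanced signal per pair of 40 kb bins, scaled to the same total in each library. Dividing out the bin factors gave whole contacts for 100.0% of values (tolerance 0.05), 154318992, 175410468 and 180775315 in growing and 109967509 and 150689993 in RIS. The count of contacts limits single pairs, as given beside them.

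For the contact profile, sides, ranges of distance, domains and compartments, contacts were divided by the chromosome's mean at the same distance. Pairs were tested in limma on scaled balanced values without this division. Pairs up to 2.0 Mb apart with a mean scaled value of at least 5 were put on the log2 scale (pseudocount 0.5) and loess-normalised (span 0.3, 4 iterations). Insulation used 13 bins, borders a prominence of at least 0.1, and compartments bins of 120 kb. Every measure was tested with limma 3.58.1 in R 4.3.3 over all features with Benjamini-Hochberg adjustment at 0.05, on all 5 libraries without covariates, and voom was fitted to recovered contacts. Single values had exact two-sided permutation tests in scipy 1.17.1, where the smaller tail is doubled. Scripts were tested on simulated data. Genes came from GENCODE 44 lifted to hg19. Pathway genes were placed by the bin of their start, and bins of the window were named by genes that overlap them.

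Named genes were those at the borders of the CDKN1A domain, in the 5 most frequent partner bins at 3 bins or more, in the 3 largest rises and falls, in called bins, the called pathway genes or the first 4 of a list, and the 3 most like CDKN1A. A called pathway gene of the DNA damage response, with a rise in the insulation score, was counted but not named. The bins over which insulation or pairs changed, and the neighbouring domains, were named after their values were seen. The members and lists were chosen with earlier results of these data known. One listed gene is not reported here and was left out of the counts. Capture tests could not be run, since no value fell in the window. Alternatives covered balancing, windows, minimum values, expected contact, domains, blocks and leaving out libraries. Those added after seeing the data were voom with blocks or without a library, and the share of contacts with other chromosomes.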

Additional observations from a re-analysis of the deposited data

How the results depend on the processing

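The difference between growing replicates 1 and 2 was compared over all bins with that between RIS replicates 1 and 2. The correlation was -0.0462 for insulation, 0.0369 for 40 to 200 kb and -0.00402 for 240 to 520 kb. Replicate numbers thus showed no shared shift in these measures, which does not settle whether the libraries were prepared in pairs. With the replicate number as a replicate block, the differences were 0.0942 at 40 to 200 kb and -0.299 at 240 to 520 kb, neither past the threshold, and 0.0999 within the CDKN1A domain, -0.297 between it and the domain of KCTD20 and STK38 and 0.75 for A over B contacts, all past it. With the duplicate class as a block they were 0.117 at 40 to 200 kb (adjusted p = 0.0537) and 1.296 for A over B contacts (adjusted p = 0.00259). Against the genome-wide expected contact the 40 to 200 kb difference was 0.0819 (adjusted p = 0.134).

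On contacts that were not balanced, insulation at CDKN1A (0.0693), insulation at the CPNE5 border (0.0232), contacts towards lower coordinates (0.0269) and contacts of the CDKN1A domain with the CPNE5 and C6orf89 domain (0.103) turned sign, none past the threshold. Contacts towards higher coordinates passed (0.32) and those at 240 to 520 kb did not (-0.18). With an insulation window of 7 bins the CDKN1A bin gave 0.0175. The causes were not tested.

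Within few and many duplicates respectively, insulation at CDKN1A differed by 0.00411 and -0.11, contacts towards lower coordinates by -0.24 and 0.0494, contacts at 40 to 200 kb by 0.0623 and 0.19, those at 1040 to 2000 kb by -0.38 and -1.02 and the compartment score by -0.0655 and -0.21. Within many duplicates, the domain differed by -0.0707 inside and 0.0111 with the KCTD20 and STK38 domain.

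A fit without 1 RIS library held a single RIS library, which was assumed to vary like the growing ones. Leaving out 1 library gave -0.15 to 0.0267 for insulation at CDKN1A, -0.23 to 0.00520 at the CPNE5 border, -0.23 to 0.0239 towards lower and 0.0779 to 0.22 towards higher coordinates. By distance it gave 0.0836 to 0.15 at 40 to 200 kb, -0.36 to -0.21 at 240 to 520 kb, -0.46 to -0.26 at 560 to 1000 kb and -0.91 to -0.43 at 1040 to 2000 kb. It gave 0.00880 to 0.0999 within the domain, -0.30 to -0.0959 with the lower and -0.17 to -0.0213 with the higher neighbour, -0.18 to -0.0810 for the compartment score, 0.66 to 1.58 for A over B contacts and 0.23 to 0.33 for the share with other chromosomes.

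In voom, 1 CDKN1A pair and 21 window pairs passed, 1 and 18 with the replicate block, 2 and 33 with the duplicate class as a block, and 0 to 1 and 0 to 18 without 1 library. In limma without 1 library, 0 CDKN1A pairs and 0 to 4 window pairs passed. The capture alternatives were not run, since no value fell in the window. Few contacts per pair limit partners beyond 200 kb, and 40 kb bins do not separate the gene's start from its surroundings.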
